A study of Homo sapiens with 4 samples.

Results

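Heat shock chaperones are proteins that fold new chains, hold unfolded ones and rescue damaged ones. The 10 genes described here are the cytosolic and mitochondrial chaperones classed as targets of the heat shock factor HSF1: HSP90AA1, HSP90AB1, HSPA8, HSPA1A, HSPA1B, HSPH1, DNAJB1, BAG3, HSPD1 and HSPE1. They were chosen by name from the 64252 gene rows of the deposited count table, and each name matched 1 row. Their mRNA was measured in the human neuroblastoma line SK-N-BE(2), after transfection with a control short hairpin RNA (shControl) or one against IGF2BP3 (shIGF2BP3), with 2 libraries in each group. The targeted IGF2BP3 binds RNA, and the title of the study places it in the control of E2F2 mRNA, which bears the methyl mark m6A. RNA levels alone were measured, by sequencing total RNA made into libraries with an Illumina TruSeq kit. The time after delivery, and whether each group was 1 clone or a pool were not stated in the labels. The labels also leave unsaid whether the libraries of a group are separate cultures, and the p-values therefore cover the spread of these libraries alone, which may be technical.

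In unstressed cells HSF1 is held inactive by chaperones. When unfolded proteins draw the chaperones away, HSF1 forms trimers and binds heat shock elements, which are inverted repeats of a short GAA unit, and transcription of chaperone genes rises. In the cytosol the HSP70 proteins take up unfolded chains with J-domain partners and nucleotide exchange factors, and pass some clients on to HSP90. In the mitochondrial matrix the HSP60 barrel folds chains under an HSP10 lid.

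Of the 10 chaperone genes, 4 fell with IGF2BP3 knockdown, 2 rose and 4 did not pass the test. Both HSP90 genes fell, HSP90AA1 by 1.70 and HSP90AB1 by 0.36 on the log2 scale, and so did both parts of the mitochondrial chaperonin, HSPD1 by 0.85 and HSPE1 by 0.44. The genes that rose, DNAJB1 and BAG3, encode partners of HSP70, with log2 changes of 0.36 and 0.44. The HSP70 genes HSPA8, HSPA1A and HSPA1B and the HSP110 gene HSPH1 lay between 0.01 and 0.26 and did not pass. Summed over all 10 genes, the level was 4488 ± 10.1 CPM in shIGF2BP3 and 6344 ± 226.1 CPM in shControl (SD, n = 2 each), where CPM are counts scaled to a common library total. This sum is not per length and rests largely on the HSP90 genes, which together held 2407 CPM in shIGF2BP3 and 3930 CPM in shControl. These calls stand against a broad difference between the groups. Across the transcriptome 51.5% of 19767 tested genes passed, 25.9% higher and 25.6% lower, and 68.9% passed among the 10069 tested genes with an average log2 CPM at or above that of HSPA1A, the lowest of the 10. The 6 calls among 10 genes are thus near the background share. The median log2 change was 0.09 for the 10 genes and 0.01 for all tested genes. In bulk RNA a change in the make-up of the cells and a change in RNA per cell cannot be told apart.

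The heat shock elements near the start sites are shown first, because they are what HSF1 binds in genes of this class. RefSeq windows on GRCh38.p14, from 250 bases before to 50 bases after each annotated start, matched all 10 genes with 16 windows. Both strands were searched for 2 inverted units spaced by 2 bases (GAANNTTC or TTCNNGAA) and for 3 such units (GAANNTTCNNGAA or TTCNNGAANNTTC), so that each 3-unit match also holds 2 overlapping 2-unit matches. Starts are numbered along each gene in the direction of transcription, and HSP90AB1 and DNAJB1 had further matches that are not printed. Each stretch of 30 bases reads 5′ to 3′ on the strand of its gene, with the matched bases in capitals.
HSP90AA1, start 2, chr14:102087104-102087133, minus strand: cTTCCGGAAGGTTCgggaggcTTCTGGAAa
HSP90AB1, start 3, chr6:44247822-44247851, plus strand: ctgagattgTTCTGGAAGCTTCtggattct
HSPA8, nearer match, chr11:123062171-123062200, minus strand: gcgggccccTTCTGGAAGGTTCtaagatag
HSPA8, farther match, chr11:123062346-123062375, minus strand: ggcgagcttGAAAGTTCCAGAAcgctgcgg
HSPD1, start 2, chr2:197500061-197500090, minus strand: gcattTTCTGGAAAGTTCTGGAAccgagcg
HSPA1A, chr6:31815426-31815455, plus strand: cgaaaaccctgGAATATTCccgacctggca
HSPA1B, chr6:31827622-31827651, plus strand: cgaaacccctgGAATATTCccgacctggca
DNAJB1, start 2, chr19:14518456-14518485, minus strand: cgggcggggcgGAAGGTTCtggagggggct

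The 3-unit form occurred in 4 of the 10 genes (HSP90AA1, HSP90AB1, HSPA8 and HSPD1), against 0.608% of the 27305 genes with a RefSeq window. The 2-unit form occurred in 7 of the 10, adding HSPA1A, HSPA1B and DNAJB1, against 16.2% of genes. No match was found in the windows of HSPH1, BAG3 or HSPE1, which says only that these letters are not in those windows. Genes with the 3-unit form did not share a response: HSP90AA1, HSP90AB1 and HSPD1 fell, while HSPA8 had a log2 change of 0.01. Genes with the 2-unit form alone included DNAJB1, which rose, and HSPA1A and HSPA1B, which did not pass. A match is a description of the letters, and no binding was measured.

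**Figure D1:**
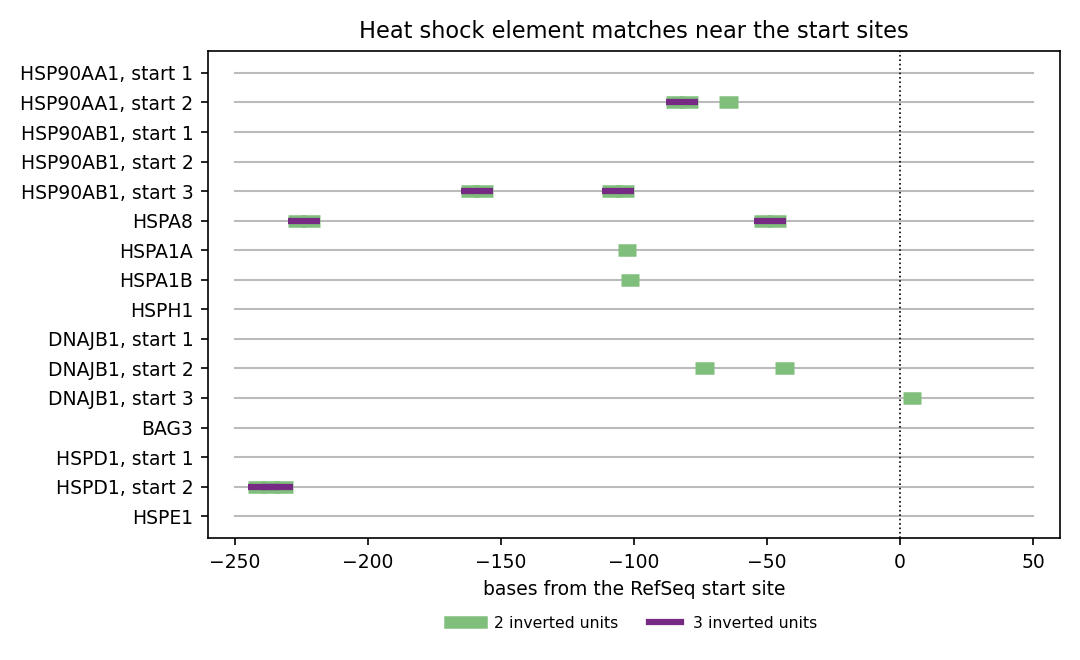
Each line is a RefSeq window around 1 annotated start, with distance in bases on the x axis and 0 at the start. Green blocks mark 2 inverted units and purple bars mark 3. The 3-unit matches lie in windows of HSP90AA1, HSP90AB1, HSPA8 and HSPD1, and no block is drawn for HSPH1, BAG3 or HSPE1.

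The targeted gene was low in the knockdown libraries. IGF2BP3 stood at 813 and 875 counts in the knockdown and 4215 and 4347 in the control libraries, or 30.3 ± 2.26 against 147.7 ± 12.5 CPM (log2 -2.28, SE 0.09, adjusted p = 1.655e-12; this and every other adjusted p comes from the quasi-likelihood test of edgeR, adjusted over all tested genes by Benjamini and Hochberg's method). Library totals ran from 26755695 to 31946756 counts. Of the 9 adrenergic neuroblastoma markers, all were detected, 7 were lower and 1 higher in shIGF2BP3, and their summed level was 1862 to 2024 CPM against 3019 to 3084 in shControl. Markers of other cells were summed in the same way. The 5 fibroblast markers stood at 533.8 to 549.2 against 401.9 to 412.6 CPM, with 3 higher and 1 lower, LUM, at 97.5 and 101.0 against 209.8 and 212.3 CPM. The 5 Schwann cell markers stood at 9.15 to 9.21 against 5.20 to 5.69 CPM, with 1 higher, 1 lower and SOX10 at 0 in every library. The 3 leukocyte markers stood at 2.70 to 2.75 against 0.767 to 1.04 CPM, with 1 higher, 1 lower and CD3E at 0 in every library. In that list CD68 was higher, at 2.75 and 2.62 against 0.297 and 0.224 CPM, and PTPRC, found on all leukocytes, was lower, at 0 and 0.0729 against 0.743 and 0.543 CPM. The 3 epithelial markers stood at 3.64 to 5.54 against 6.29 to 7.87 CPM, with none higher and 1 lower. LUM, CD68 and PTPRC are named after their values were seen. These marker differences run along with every chaperone difference below, and their part in it was not tested.

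**Figure D2:**
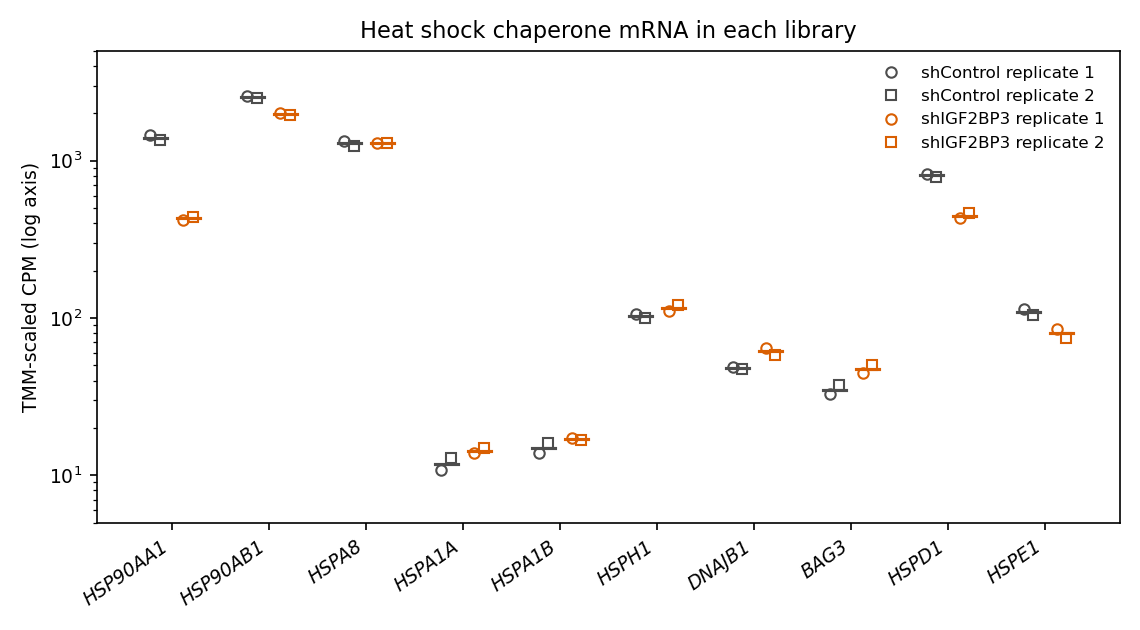
TMM-scaled CPM on a log axis for the 10 chaperone genes in each library. Circles and squares are replicates 1 and 2, grey for shControl and orange for shIGF2BP3, and bars are group means of 2 libraries. The widest gap between groups is that of HSP90AA1, at 430.3 against 1400 CPM, and the HSPA8 points overlap.

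HSP90AA1 encodes HSP90 alpha, the stress-inducible cytosolic HSP90 (ENSG00000080824, minus strand of chromosome 14, 102080738 to 102139699, GRCh38). Its level was 420.3 and 440.2 CPM in the shIGF2BP3 libraries and 1456 and 1344 CPM in the shControl libraries. Every knockdown library thus lay far under every control library, at 430.3 ± 14.1 against 1400 ± 79.4 CPM (SD, n = 2 each), a 3.25-fold difference of means. The log2 fold change was -1.70 (SE 0.06, adjusted p = 7.985e-13). Among the 38 tested genes with at least as many shControl CPM, itself included, HSP90AA1 had the lowest fold change; this ranking is on counts and not per length.

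HSP90AB1 encodes HSP90 beta, the constitutive cytosolic HSP90 (ENSG00000096384, plus strand of chromosome 6, 44246166 to 44253888). It stood at 2008 and 1945 CPM in shIGF2BP3 and 2565 and 2495 CPM in shControl. The groups did not overlap, and the mean was 1.28-fold lower in the knockdown (log2 -0.36, SE 0.06, adjusted p = 4.683e-05). The 2 HSP90 genes together gave 2407 ± 30.8 CPM in shIGF2BP3 and 3930 ± 128.4 CPM in shControl.

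HSP90AA1 had the larger measured fall of the 2 HSP90 genes. The ratio of HSP90AA1 to HSP90AB1 within a library was 0.209 and 0.226 in shIGF2BP3 and 0.568 and 0.538 in shControl, a difference of -1.34 on the log2 scale. The knockdown libraries were both lower, and the exact two-sided permutation p was 0.333, the smallest that 2 libraries against 2 can give. Reads of the HSP90 genes can also fit their processed pseudogenes: 17.5% of the 50-base windows of the HSP90AA1 transcript and 18.8% of those of HSP90AB1 occur in other annotated genes, and 2.14% and 1.59% of their 100-base windows do. The pseudogene rows held at most 0.861% of the HSP90AA1 counts and 0.641% of the HSP90AB1 counts in any library. The largest HSP90AA1 copy, HSP90AA2P, had 67 and 93 counts in the knockdown and 219 and 283 in the control libraries. The largest HSP90AB1 copy, HSP90AB3P, had 313 and 340 in the knockdown and 416 and 432 in the control libraries. Each was lower in the knockdown, like its gene. With all the pseudogene rows added the ratio difference was again -1.34. HSP90AA1 also shares 197 exon bases with WDR20 on the other strand, which had 682 and 621 counts in the knockdown and 885 and 902 in the control libraries, lower in the knockdown like HSP90AA1, and the labels do not say whether counting used strand.

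**Figure D3:**
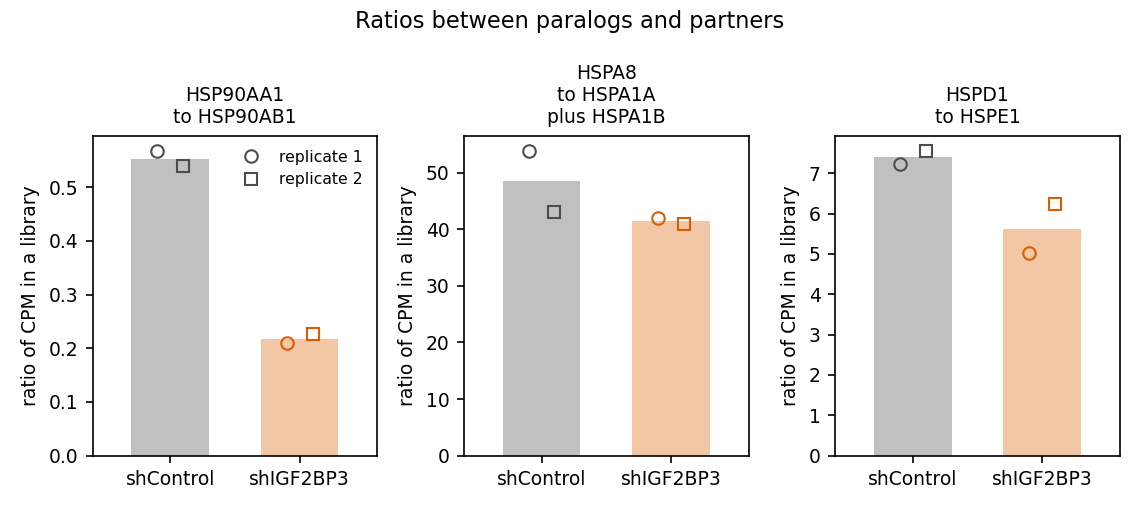
Ratios of CPM within each library for 3 pairs of chaperones, with bars at the mean of 2 libraries from 0 and points for replicates 1 and 2. HSP90AA1 to HSP90AB1 falls from 0.538 to 0.568 in shControl to 0.209 to 0.226 in shIGF2BP3; for HSPA8 to HSPA1A plus HSPA1B, the lower control value of 43.0 lies next to the higher knockdown value of 42.0.

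HSPA8 encodes HSC70, the constitutive cytosolic HSP70 (ENSG00000109971, minus strand of chromosome 11, 123057489 to 123063230). It stood at 1301 and 1294 CPM in shIGF2BP3 and at 1330 and 1243 CPM in shControl. Both knockdown values lay inside the control range, the only overlap of groups among the 10 genes, while 74.5% of all tested genes had groups that did not overlap. The log2 fold change was 0.01 (SE 0.06, adjusted p = 0.882). Of its 50-base windows 15.4% recur in other genes, and of its 100-base windows 0%, and its 17 pseudogene rows held at most 0.183% of its counts.

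HSPA1A and HSPA1B encode nearly the same protein, the stress-inducible HSP70, and lie 9788 bases apart on the plus strand of chromosome 6 (ENSG00000204389, 31815464 to 31817946, and ENSG00000204388, 31827735 to 31830255). HSPA1A stood at 13.8 and 14.8 CPM in shIGF2BP3 and 10.8 and 12.9 CPM in shControl (log2 0.26, SE 0.16, adjusted p = 0.177). HSPA1B stood at 17.2 and 16.8 CPM against 13.9 and 16.01 CPM (log2 0.18, SE 0.14, adjusted p = 0.303). Neither passed, although for each gene both knockdown libraries lay above both control libraries. Their split is uncertain: the transcripts are 88.4% identical, and 72.6% of the 50-base windows of HSPA1A and 73.5% of those of HSPA1B occur in other genes, mostly in each other. Their sum, which does not depend on that split, was 31.0 and 31.6 CPM in shIGF2BP3 and 24.7 and 28.9 CPM in shControl, and when fitted as 1 gene it did not pass (log2 0.22, adjusted p = 0.119). The ratio of HSPA8 to this sum was 42.0 and 40.9 in shIGF2BP3 and 53.9 and 43.0 in shControl (log2 difference -0.22, exact permutation p = 0.333), with 1 control library close to the knockdown libraries. The counting rule was not given, so reads that fit both HSPA1A and HSPA1B may be missing from the sum and the ratio. HSPA6, a strictly heat-induced HSP70 named here after its values were seen, had too few counts to be tested, at 7 and 5 in shIGF2BP3 and 1 and 3 in shControl.

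The partners of HSP70 included both genes that rose. DNAJB1, a J-domain protein that stimulates the HSP70 ATPase (ENSG00000132002, minus strand of chromosome 19, 14514770 to 14529770), stood at 64.8 and 58.4 CPM in shIGF2BP3 and 48.8 and 47.2 CPM in shControl. Both knockdown libraries were above both controls, 1.28-fold by the means (log2 0.36, SE 0.09, adjusted p = 0.0027). DNAJB1 shares 211 exon bases with TECR on the other strand, and TECR moved the other way, at 1577 and 1346 counts in the knockdown and 2732 and 3104 in the control libraries. BAG3, an exchange factor that also links HSP70 clients to autophagy (ENSG00000151929, plus strand of chromosome 10, 119651370 to 119677819), stood at 44.9 and 50.4 CPM in shIGF2BP3 and 32.7 and 37.3 CPM in shControl. The groups were again separate, 1.36-fold apart (log2 0.44, SE 0.10, adjusted p = 0.0017), and no 50-base window of BAG3 occurs in another annotated gene. HSPH1, the HSP110 exchange factor (ENSG00000120694, minus strand of chromosome 13, 31134974 to 31162388), stood at 110.4 and 120.2 CPM in shIGF2BP3 and 105.5 and 100.5 CPM in shControl. It did not pass (log2 0.16, SE 0.08, adjusted p = 0.0822), but did with upper-quartile scaling (0.22, adjusted p = 0.0235) and with library size alone (0.24, adjusted p = 0.0117).

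HSPD1 encodes HSP60, the barrel of the mitochondrial chaperonin (ENSG00000144381, minus strand of chromosome 2, 197486581 to 197516737). It stood at 429.2 and 466.2 CPM in shIGF2BP3 and 827.1 and 784.4 CPM in shControl. The knockdown libraries were both far lower, 1.80-fold by the means (log2 -0.85, SE 0.06, adjusted p = 4.269e-09). HSPE1 encodes HSP10, the lid (ENSG00000115541, plus strand of chromosome 2, 197499994 to 197503457), and stood at 85.6 and 74.8 CPM in shIGF2BP3 and 114.2 and 103.8 CPM in shControl. It too was lower in both knockdown libraries, 1.36-fold (log2 -0.44, SE 0.08, adjusted p = 0.00028).

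These 2 genes are transcribed away from each other. The RefSeq start 1 of HSPD1 lies 105 bases from that of HSPE1, and their windows overlap by 204 bases. Their annotated exons overlap by 281 bases on opposite strands, and whether counting used strand is not known. HSPD1 had the higher counts, and its reads may be part of the HSPE1 count. The part of such reads in the HSPE1 fall was not tested. The 3-unit matches printed above for HSPD1 fall in the window of its start 2. The HSPD1 start 2 lies 539 bases from the HSPE1 start. The matches lie between those 2 starts, nearer to HSPD1 start 2, at bases -245 to -228 from it. Their printed stretch ends at base 197500090, and the HSPE1 window begins at base 197500129. The ratio of HSPD1 to HSPE1 was 5.02 and 6.24 in shIGF2BP3 and 7.24 and 7.56 in shControl. Both knockdown libraries were lower (log2 difference -0.40, exact permutation p = 0.333), and they differed more from each other than the controls did. HSPD1 has 18 pseudogene rows and HSPE1 has 27 pseudogene or readthrough rows, which held at most 1.504% and 1.57% of the counts of their gene, and 24.8% and 27.2% of their 50-base windows occur in other genes. The largest copy, HSPD1P1, had 96 and 132 counts in the knockdown and 294 and 299 in the control libraries. With the copies added the ratio difference was -0.41.

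**Figure D4:**
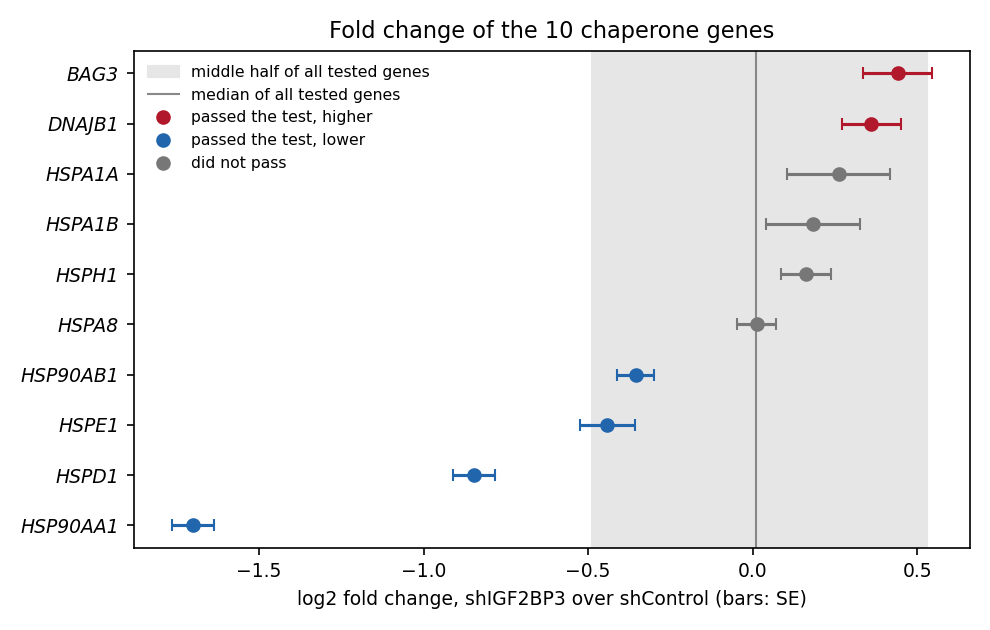
Log2 fold change of shIGF2BP3 over shControl for the 10 chaperone genes, with the SE as bars and colour for the call. The grey band runs between the quartiles of all tested genes, from -0.49 to 0.53. HSP90AA1 and HSPD1 lie outside the band, at -1.70 and -0.85, and the others have their estimate within it.

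Levels can be set beside each other only per length, here as CPM per kilobase of merged exons. In shControl HSP90AB1 was highest at 849.0 ± 16.4, followed by HSP90AA1 at 266.7 ± 15.1, HSPA8 at 265.3 ± 12.7, HSPD1 at 189.8 ± 7.11 and HSPE1 at 55.1 ± 3.75 CPM per kilobase. HSP90AA1 and HSPA8 overlapped there. DNAJB1 at 13.1, BAG3 at 12.7 and HSPH1 at 12.3 CPM per kilobase followed, with neighbours overlapping, and HSPA1B at 5.92 and HSPA1A at 4.78 were lowest. In shIGF2BP3 the same scale gave 663.2 ± 15.1 for HSP90AB1, 267.6 ± 0.941 for HSPA8, 105.5 ± 6.16 for HSPD1, 82.0 ± 2.68 for HSP90AA1 and 40.5 ± 3.86 for HSPE1. HSP90AA1 thus shared the place after HSP90AB1 with HSPA8 in shControl and stood below both HSPA8 and HSPD1 in shIGF2BP3. BAG3 at 17.3 and DNAJB1 at 16.8 overlapped, ahead of HSPH1 at 13.7, HSPA1B at 6.75 and HSPA1A at 5.76 CPM per kilobase. The order depends on the length used, and reads that fit both HSPA1A and HSPA1B may be missing from the levels of those genes. Per kilobase of 1 principal transcript, HSPA8 in shControl was at 522.4 ± 25.03 and HSP90AA1 at 398.8 ± 22.6, which no longer overlapped, and HSP90AA1 was again below HSPD1 in shIGF2BP3, at 122.6 ± 4.01 against 182.4 ± 10.6.

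The heat shock factors did not move as 1 group. HSF2, which forms trimers with HSF1, fell from 61.4 and 66.7 CPM in shControl to 34.0 and 32.3 CPM in shIGF2BP3 (log2 -0.95, SE 0.09, adjusted p = 1.538e-07). HSF4, known for its role in the lens, rose from 27.4 and 25.7 to 47.2 and 44.2 CPM (log2 0.79, SE 0.10, adjusted p = 4.422e-06). HSF1 itself stood at 85.9 and 82.7 CPM in shIGF2BP3 and 82.6 and 89.2 CPM in shControl, and did not pass (log2 -0.03, SE 0.08, adjusted p = 0.788). HSBP1, a small protein that binds the HSF1 trimer, fell by 0.28 on the log2 scale (adjusted p = 0.0044), a call lost without shIGF2BP3 replicate 1 (-0.22, adjusted p = 0.0663). HSF1 activity is set largely by its protein state, which was not measured.

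Of 17 tested genes on a list of other heat-inducible genes, 4 rose, 6 fell and 7 missed the threshold, with a median log2 change of -0.02. The share called, 58.8%, was near that of all tested genes (51.5%, or 68.9% at or above the level of HSPA1A). HSPB8, a small heat shock protein that works with BAG3, rose from 4.75 and 3.87 CPM in shControl to 28.9 and 31.5 CPM in shIGF2BP3 (log2 2.82, SE 0.17, adjusted p = 1.719e-10). SERPINH1, the collagen chaperone HSP47, rose from 122.7 and 133.2 to 444.6 and 421.5 CPM (log2 1.76, SE 0.07, adjusted p = 1.257e-12). STIP1, which hands clients from HSP70 to HSP90, fell from 258.9 and 253.8 to 105.7 and 99.5 CPM (log2 -1.32, SE 0.07, adjusted p = 3.805e-11). The J-domain gene DNAJB4 rose by 0.68 and CACYBP fell by 0.51, while CHORDC1, an HSP90 partner, stood at -0.02.

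Among co-chaperones of HSP90, 8 of 14 tested genes fell, 2 rose and 4 missed the threshold, with a median of -0.25 on the log2 scale. That is 71.4% called, against 51.5% of all tested genes and 68.9% of those at or above the level of HSPA1A, and 25.6% of all tested genes fell. HSP90 partners on the list of other heat-inducible genes, STIP1 and CHORDC1 among them, are not in this count. PTGES3, the p23 protein that stabilises the closed HSP90 dimer, fell from 489.0 and 426.7 CPM in shControl to 163.1 CPM in both shIGF2BP3 libraries (log2 -1.49, SE 0.07, adjusted p = 1.537e-11). RUVBL1 and PIH1D1, parts of the R2TP complex that works with HSP90, fell by 0.95 and 0.97. The immunophilin FKBP5 fell by 0.52, and CDC37L1, a relative of the kinase co-chaperone CDC37, rose by 0.94. TTC4 did not pass (log2 -0.23, SE 1.02), but its 2 control libraries stood at 23.8 and 5.05 CPM around knockdown values of 13.2 and 10.5 CPM. Its direction rests on 1 control library, at 1.23 without shControl replicate 1 (adjusted p = 8.58e-06) and -1.02 without shControl replicate 2 (adjusted p = 8.158e-08).

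Among co-chaperones of HSP70, 5 of 15 tested genes were higher, 7 lower and 3 not passed, with a median log2 change of 0.06. The share called was 80.0%, against 51.5% of all tested genes and 68.9% of those at or above the level of HSPA1A. DNAJC6, or auxilin, which recruits HSC70 to clathrin coats, rose from 80.7 and 78.8 CPM in shControl to 140.5 and 144.3 CPM in shIGF2BP3 (log2 0.84, SE 0.07, adjusted p = 2.891e-08). DNAJC5, the cysteine string protein of synaptic vesicles, fell from 86.6 and 108.1 to 42.25 and 45.9 CPM (log2 -1.15, SE 0.10, adjusted p = 1.622e-07). BAG2 rose by 0.87 and DNAJB5 by 0.63, DNAJB2 fell by 0.66, and DNAJA4 stood at 0.06. Among 6 other HSP70 family genes 1 rose, 2 fell and 3 did not pass, so that 50% were called, against 51.5% of all tested genes. HSPA2 fell by 0.69 (adjusted p = 0.00045). HSPA13 passed at 0.19 (adjusted p = 0.0313), but not when shIGF2BP3 replicate 2, shControl replicate 1 or shControl replicate 2 was left out (0.13 to 0.19). HSPA14 passed at -0.24 (adjusted p = 0.0279), but not when either shIGF2BP3 library or shControl replicate 1 was left out (-0.27 to -0.20). HSPA12A, HSPA12B and HSPA1L stood at 0.13, -0.71 and -0.41 and did not pass, and HSPA12B was at -1.25 (adjusted p = 0.0349) without shControl replicate 2.

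The cytosolic chaperonin TRiC, a ring of 8 different subunits that folds actin and tubulin, fell in all 8 of its tested genes, where 25.6% of all tested genes fell, with a median log2 change of -0.87 and a range of -1.52 to -0.32. CCT8 fell from 258.9 and 242.9 CPM in shControl to 84.5 and 90.3 CPM in shIGF2BP3 (log2 -1.52, SE 0.07, adjusted p = 1.145e-11). CCT5 fell by 1.44, CCT7 by 1.37, TCP1 by 0.97 and CCT4 by 0.77. The smallest change was that of CCT3, at 440.4 and 410.7 CPM against 527.8 and 533.6 CPM (log2 -0.32, adjusted p = 0.00031). All 8 were lower in every knockdown library than in any control library. Across all tested genes 74.5% had groups that did not overlap, in either direction.

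Of 17 other mitochondrial chaperones and proteases tested, 4 rose, 6 fell and 7 missed the threshold, with a median of -0.02. The share called was again 58.8%, between the 51.5% of all tested genes and the 68.9% of those at or above the level of HSPA1A. CLPB, a disaggregase of the intermembrane space, rose from 71.2 and 83.9 CPM in shControl to 160.2 and 160.0 CPM in shIGF2BP3 (log2 1.04, SE 0.08, adjusted p = 7.078e-09). The J-domain gene DNAJA3 rose by 0.92. The inner-membrane protease YME1L1 fell from 246.4 and 239.3 to 134.5 and 141.8 CPM (log2 -0.81, SE 0.07, adjusted p = 1.534e-08). The protease HTRA2 fell by 0.75 and PMPCB, which cuts import signals, by 0.48, while the matrix protease CLPP stood at -0.02.

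In the endoplasmic reticulum 6 of 14 tested chaperone genes rose, 1 fell and 7 missed the threshold, with a median of 0.16. The share called was 50%, near the 51.5% of all tested genes, of which 25.9% rose. It was below the 68.9% of tested genes at or above the level of HSPA1A. CANX, a lectin chaperone, rose from 715.2 and 666.4 CPM in shControl to 1085 and 1141 CPM in shIGF2BP3 (log2 0.69, SE 0.06, adjusted p = 4.217e-08). DNAJB11, a partner of the HSP70 of that compartment, rose by 0.57, PDIA3 by 0.26 and CALR by 0.23. The call of CALR was lost without shIGF2BP3 replicate 1 (0.19, adjusted p = 0.0656), where 3 genes of the list rose in place of 6. The disulfide isomerase PDIA6 fell from 392.7 and 365.5 to 233.3 and 232.9 CPM (log2 -0.70, SE 0.06, adjusted p = 5.929e-08), and P4HB stood at 0.01.

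**Figure D5:**
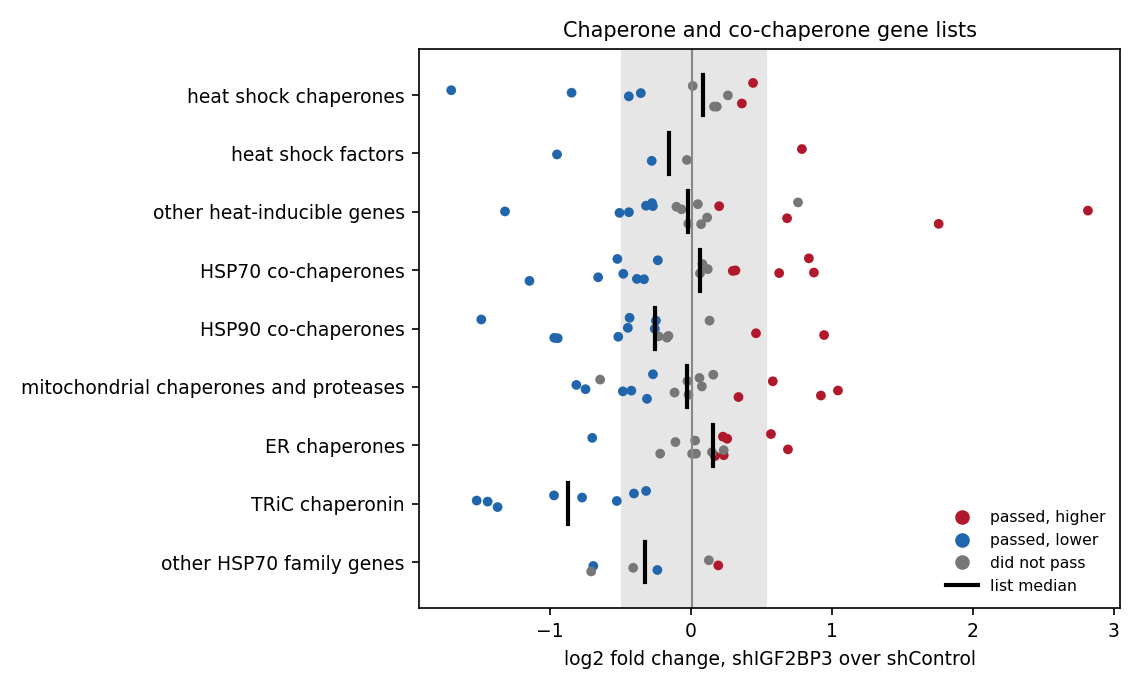
Log2 fold change of every tested gene of the 10 chaperones and 8 further lists, 1 point a gene, coloured by call, with the list median as a black bar. The grey band runs between the quartiles of all tested genes (-0.49 to 0.53) and the grey line their median. All 8 TRiC points lie below 0, and the other lists have points on both sides.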

How the data were processed

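The authors deposited whole-number counts per Ensembl gene, 1 column for each of 4 libraries. The submitters' processing notes name HISAT2 2.2.0, StringTie and hg38. Annotation, strand setting and counting rule were not given in the sources used, so overlapping, antisense and near-identical genes are uncertain. Counts made by StringTie would be rounded estimates.

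A gene name table gave symbols for 56105 identifiers and GENCODE 29 for 486; the 7661 others held 1.60% to 1.80% of the counts. Lengths, exon overlaps and shared windows used GENCODE 29 on GRCh38, and start-site windows RefSeq on GRCh38.p14.

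Counts were fitted with edgeR 4.0.16 in R 4.3.3 (filterByExpr with smallest count 10, TMM scaling, robust quasi-likelihood test), with Benjamini-Hochberg adjustment over all tested genes and a threshold of 0.05. The fit left 2 residual degrees of freedom, with a median prior of 15.1 more, at a common biological coefficient of variation of 12.6%. CPM are TMM-scaled, given with the SD over 2 libraries. SE is the log2 fold change divided by the square root of F. A count of 0 allows up to 3 counts, 0.0958 to 0.111 CPM, for counting error only. Replicates differed by more than sampling noise (chi-square per degree of freedom 7.26 and 8.43, against 146.0 to 152.7 across groups).

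The members and the 8 lists (96 entries, all with a row) were chosen with earlier results of these data known. Named genes were all members, IGF2BP3, the heat shock factors, and of each other list up to 5 genes with the smallest p and the one with the largest. Alternatives were no filter, RLE, upper-quartile and library-size scaling, DESeq2 1.42.0, limma voom 3.58.1, a replicate block, each library left out, and summed rows; an older edgeR fit was added after seeing the data. The pipeline was tested on simulated counts.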

Additional observations from a re-analysis of the deposited data

How the results depend on the processing

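The 6 members called kept their call and direction under every alternative run, with adjusted p of at most 0.0466 (DNAJB1, without 1 library). Leaving out 1 library at a time gave -1.78 to -1.65 for HSP90AA1, -0.39 to -0.33 for HSP90AB1, -0.91 to -0.79 for HSPD1, -0.54 to -0.35 for HSPE1, 0.29 to 0.43 for DNAJB1 and 0.35 to 0.53 for BAG3. HSPH1 passed with upper-quartile scaling (0.22) and library size alone (0.24). HSPA8 lay between -0.05 and 0.09 over its alternatives. With a replicate block HSP90AA1 stood at -1.70, HSPD1 at -0.85 and BAG3 at 0.45, and the block changed no call of a member; deviations of same-numbered libraries correlated at 0.021, so same numbers were not taken as pairs. All tested genes gave 8757 (no filter) to 10509 (replicate block) calls, and 8800 to 9442 without 1 library.

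Counts of the small lists moved more. Without 1 library the heat shock factors had 1 to 2 lower, the endoplasmic reticulum list 3 to 6 higher and 1 to 2 lower, and the other HSP70 family genes 0 to 1 higher and 1 to 3 lower. That family had 0 higher and 1 lower with no filter, and 1 lower with upper-quartile scaling and with library size alone. TTC4 turned to 1.23 without shControl replicate 1 and stood at -1.02 without shControl replicate 2. Of 598 values of single list genes under alternatives, 583 stayed on the same side of the threshold. Of these, 16 values of 6 genes had the other sign (HSF1, CHORDC1, DNAJA4, TTC4, CLPP and P4HB, adjusted p of 0.516 or more). The lowest count of any member in a library was 292 (HSPA1A), and 2 libraries a group limit the precision of every value.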
